A study of Homo sapiens with 8 samples.

Results

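The DNA examined here was the stretch lying more than 3000 bp upstream of the nearest annotated transcription start on a 2-slide human promoter microarray hybridised with SMAD3 chromatin immunoprecipitates. A probe was taken as distal upstream when the start with the smallest absolute distance in its annotation lay below -3000 bp and the probe was not labelled as part of a divergent promoter. Of 474411 non-control probes, 73081 (15.4%) met this definition, 38627 on slide 1 and 34454 on slide 2. Their median distance was -4183 bp, and 98.5% lay between 3000 and 5500 bp from the start, so that "distal" here means the outer end of the tiled window and not remote enhancers. The array design itself called 66095 of them promoter, 4267 inside a gene, 405 downstream and 2314 unknown. They carried 10829 gene names, with a median of 6 distal probes a gene, and 1343 had a miRNA as their nearest start.

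The cells were A549, an established human lung alveolar epithelial carcinoma line, grown in medium with fetal bovine serum and, by the study's methods, serum-starved before experiments. Unstimulated cells were untreated. Stimulated cells received 2 ng/ml of TGFb1 and were taken after at most 2 h by the labels, and the study's text names a single shorter time for its array profiles. Each condition had 2 replicates on both slides, 8 arrays in all. The sample titles number the replicates without saying whether cultures or immunoprecipitations were separate. On every array the SMAD3 immunoprecipitate (IP) was labelled with Cy5 and a mock IP from the same condition with Cy3. The mock IP is named anti-FLAG in the sample labels and control IgG in their protocol. Immunoprecipitated DNA was ligated to linkers and amplified before labelling. Dyes were not swapped, so that dye and antibody cannot be told apart in the ratio itself. The arrays hybridised genomic DNA, so the identity of the cells could not be checked against marker transcripts.

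TGFb1 binds a pair of type II and type I serine/threonine kinase receptors, and the activated type I receptor phosphorylates SMAD2 and SMAD3. These join SMAD4, accumulate in the nucleus and bind DNA through short motifs, usually beside other factors such as AP-1 or forkhead proteins. In alveolar epithelial cells the pathway is best known for growth arrest and for epithelial to mesenchymal transition.

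The scanner files hold probe positions but no probe letters, so the distal regions themselves cannot be printed. Among the miRNAs whose distal upstream probes were measured in both conditions, 5 with large changes and 1 with no called change are shown by a mature product, so that the regulatory RNA concerned can be recognised. These 6 were chosen after their values were seen, and they are returned to below. The sequences are from RefSeq (GRCh38.p14), 5′ to 3′, with the seed (bases 2 to 8) in capitals.
hsa-miR-185-5p: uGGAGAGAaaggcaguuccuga
hsa-miR-589-5p: uGAGAACCacgucugcucugag
hsa-miR-138-5p: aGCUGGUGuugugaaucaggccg
hsa-miR-193b-3p: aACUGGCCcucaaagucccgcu
hsa-miR-296-5p: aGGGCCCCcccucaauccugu
hsa-miR-200b-3p: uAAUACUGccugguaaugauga
No seed was shared among the 6.

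Distal probes were dim in both immunoprecipitates. In the unstimulated replicates 31.4% and 32.8% of the distal probes were well above background in both channels, the software's flag for a spot that can be told from its surroundings, and in the stimulated replicates 28.7% and 30.5% were. At core promoter probes, within 250 bp of a start, the shares were 72.4%, 74.4%, 71.6% and 73.4%. The distal share was 42.1 percentage points below core (SD 0.987 over 4 replicates) and 11.7 points below proximal upstream probes between 250 and 2000 bp (SD 0.187), lower in 4 of 4 replicates in each case. An exact two-sided sign-flip test over 4 replicates gave p = 0.125 for each, the smallest it allows. Both channels shared the deficit: the median log2 SMAD3 signal of distal probes lay 2.99 below that of core probes (SD 0.37) and the median mock signal 2.89 below (SD 0.27). Between 63.9% and 67.6% of distal SMAD3 spots and 57.3% to 60.6% of distal mock spots held floor values. These are a small constant that the software writes for spots at or below background. Both distal medians thus rest on floor values, and their distances from core are not measured sizes.

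**Figure D1:**
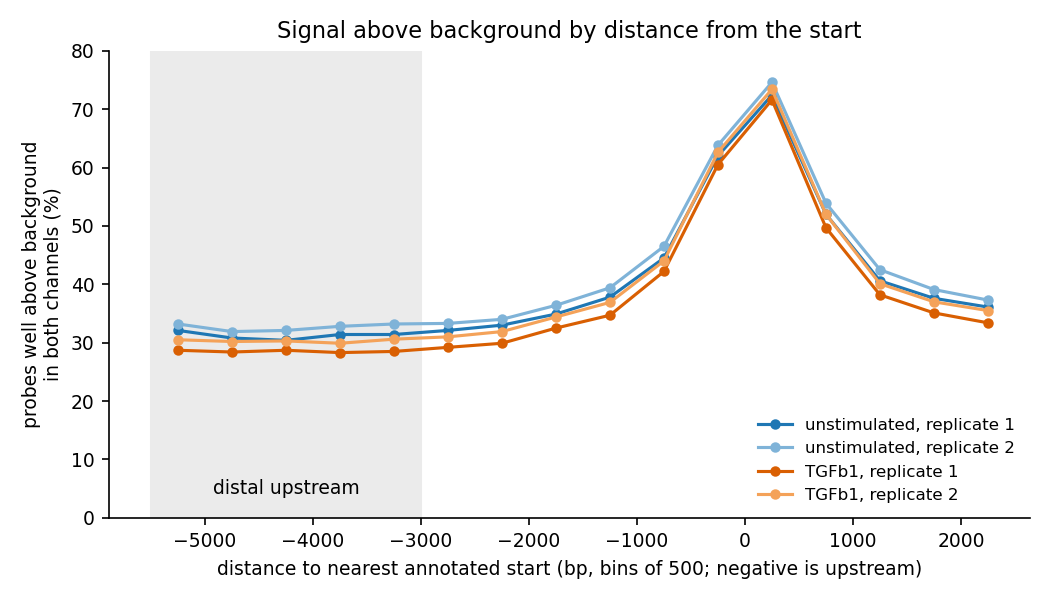
Share of probes well above background in both channels (y axis, percent) by distance to the nearest start in bins of 500 bp (x axis), one line per replicate. All 4 replicates peaked in the bin just downstream of the start and were flat across the shaded distal window, where between 28.7% and 32.8% of all distal probes were above background.

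Within the distal window the level was flat. The share of probes measured in both channels on all 4 replicates, which is what "measured" means for the change below, was 20.1% at 3001 to 3500 bp and 20.1% at 5001 to 5500 bp. The 1113 tested probes beyond 5500 bp were measured more often, at 30.5%. At the limit itself, 21.1% of the 3224 probes from 3001 to 3100 bp were measured and 20.5% of the 3285 in the adjoining stretch of equal length on the other side, with 4.4% and 4.29% called higher in the SMAD3 IP in unstimulated cells.

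Probe length separated the distal probes more than distance did. Probes on this platform are 44 to 60 bases long. Of the 10725 distal probes of 44 to 45 bases, 85.5% were measured, against 1.31% of the 41786 of 60 bases. Core probes behaved likewise (93.3% and 1.65%), but only 16.4% of core probes had 60 bases, against 57.4% of distal probes. The part of length in the dimness of the distal window was not tested further, since the scanner files give no base composition. At a fixed length of 44 to 45 bases, distal probes still had a lower ratio of SMAD3 to mock than core probes. Their median log2 ratio was below that of core by 0.80 and 0.94 in the unstimulated replicates. In the stimulated replicates it was below by 0.93 and 1.05 (exact sign-flip p = 0.125). Distal minus proximal was smaller in size, at -0.26 and -0.29 in the unstimulated and -0.31 and -0.36 in the stimulated replicates.

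Over all distal probes the median log2 ratio of SMAD3 to mock was between 0.004 and 0.005 in every replicate, with each array centred on its own median. Between 53.7% and 56.9% of distal spots held floor values in both channels, so that this median rests on floor spots and is not a measured ratio. The median of distal minus core was -0.014 (SD 0.008, 4 replicates) and that of distal minus proximal 0.006 (SD 0.001). Restricted to probes above background in both channels on every array, the distal median was -0.59 and -0.77 in unstimulated and -0.83 and -0.95 in stimulated cells, and the difference from core was -0.89 (SD 0.10). The shift in the distal minus core difference with TGFb1 was 0.006 on the log2 scale over all probes (exact permutation p = 0.667) and reversed to -0.12 among measured probes (exact permutation p = 0.667). With 2 replicates a condition this exact test cannot go below p = 0.333.

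In unstimulated cells the distal probes highest in the SMAD3 IP lay upstream of LCN2, which encodes the secreted iron-siderophore carrier lipocalin 2, TRIM25, a ubiquitin ligase of antiviral RNA sensing, ADRM1, a ubiquitin receptor of the proteasome, AKAP1, a mitochondrial anchor for protein kinase A, and METRNL, a secreted meteorin-like protein. The LCN2 probe (chromosome 9, distance -4712 bp) had log2 ratios of 10.35 and 10.61 in the 2 unstimulated replicates. Its ratios after TGFb1 were 0.12 and 0.05, with the probe above background in both channels in 1 of the 2. The TRIM25 probe (chromosome 17, distance -3375) read 10.03 and 10.79 before TGFb1. These probes were chosen for being high in unstimulated cells, so their distance from the other condition is no result. The ADRM1 probe (chromosome 20, distance -5140) read 9.96 and 9.90 and the AKAP1 probe (chromosome 17, distance -3243, inside a gene by the array's label) 9.71 and 9.86. The METRNL probe (chromosome 17, distance -5483) read 10.05 and 9.14. All 5 passed limma with Benjamini-Hochberg adjustment over all probes (adjusted p from 0.00123 to 0.00138). Ratios of this size depend on the background estimate: with normexp correction the 5 means fell to between 4.35 and 6.09 and none passed (adjusted p from 0.0568 to 0.206).

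Neighbouring probes followed at some of these loci and not at others. At LCN2 8 of 15 distal probes were called higher in the SMAD3 IP, spread from -5488 to -3808. Within that stretch the probes at -4844 and -4415 disagreed between the replicates, with log2 ratios of -1.24 and 8.98 at the first and 0.20 and 4.97 at the second. At METRNL 10 of 15 were called higher, 9 of them consecutive, the longest such run among distal probes in unstimulated cells. At ADRM1 5 of 10 were called higher, and at AKAP1 3 of 17 were higher and 4 lower. At TRIM25 3 of 4 were called, with means falling from 10.41 at -3375 to values of 7.57 and 7.49 at -3248 and 5.20 and 5.10 at -3089.

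Across the whole distal window 2938 probes were called higher in the SMAD3 IP than in the mock IP in unstimulated cells, 4.03% of the 72852 tested, against 8.92% of all probes on the array. A further 10351 (14.2%) were called lower, against 17.4% of all probes. Among the 19546 distal probes measured in both channels in both unstimulated replicates, 12.3% were called higher and 40.6% lower, where the shares over all such probes were 20.1% and 35.4%. Distal probes thus held fewer SMAD3-enriched calls than the array as a whole, also among bright spots. The array as a whole includes core probes, so this is no contrast with neighbouring positions. At the 3000 bp limit the shares called higher were alike, 4.4% just inside and 4.29% just outside. The balance of directions depends on where zero is set. With each array's median at 0, 22.1% of the unstimulated calls were higher. Loess within arrays gave 36.1%, the uncentred deposited ratios 72.5% and centring on probes above background 61.4%. Restricted to measured distal probes the same 4 scalings gave 25.8%, 43.9%, 40.8% and 37.1%, so that lower calls outnumbered higher ones under each. Before centring the array medians lay between 0.24 and 0.72.

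After TGFb1 the highest distal probes were at other genes. They lay upstream of DDX20, an RNA helicase of the SMN complex, ARSI, an arylsulfatase, FOXC1, a forkhead transcription factor, SUSD3, a sushi domain membrane protein, and KIRREL (now KIRREL1), a nephrin-like adhesion protein. The DDX20 probe (chromosome 1, distance -4392) read 12.50 and 13.26 in the 2 stimulated replicates. The FOXC1 probe (chromosome 6, distance -4563) read 11.51 and 10.22 after TGFb1 and -1.41 and -0.46 before. It was above background in both channels on all arrays. The remaining 3 probes read 10.52 and 11.28 at ARSI (chromosome 5, distance -3197), 10.98 and 10.70 at SUSD3 (chromosome 9, distance -5141) and 10.83 and 10.56 at KIRREL (chromosome 1, distance -5247). They were chosen for being high after TGFb1. Adjusted p-values in limma ran from 0.00140 to 0.00215, and all 5 kept their call with normexp correction, at means of 7.50 to 9.11. The other 4 probes were not above background in both channels in unstimulated cells, so no fold is given for them. In its separate channels the FOXC1 probe changed by 12.46 in the SMAD3 IP (adjusted p = 0.00139) and by 0.77 in the mock IP (adjusted p = 0.442).

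SUSD3 and FOXC1 had blocks of neighbouring high probes. At SUSD3 the 4 probes from -5262 to -4913 had log2 ratios of 6.79 to 11.39 in the stimulated replicates and of -1.60 to 0.75 in the unstimulated ones. The next probe inward, at -4607, read 0.81 and 0.23 after TGFb1. At FOXC1 the 5 probes from -4996 to -4447 read between 5.86 and 12.10 after TGFb1, and of these the ones at -4890 and -4447 were not above background in both channels in either condition. Further in at FOXC1 the probe at -3778 went the other way, from 4.96 and 4.67 to 0.16 and -0.95.

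In stimulated cells 2450 distal probes (3.36%) were called higher in the SMAD3 IP, against 8.22% of all probes, and 10868 (14.9%) lower, against 18.5%. Among the 17959 distal probes measured in both stimulated replicates, 10.8% were higher and 43.6% lower, where all such probes gave 19.3% and 37.8%. Higher calls made up 18.4% of calls, and 36% with loess, 79.6% uncentred and 69.6% when centred on probes above background. Over measured distal probes these shares were 19.6%, 40.6%, 38.4% and 34.3%.

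The enriched lists of the 2 conditions overlapped in part. Of the 2938 enriched in unstimulated cells, 719 were also enriched after TGFb1, 24.5% of the first list and 29.3% of the second. After TGFb1 3.36% of all distal probes were enriched, and 10.8% of those measured in both stimulated replicates. Over all probes of the array the lists of 42196 and 38878 shared 20192, 47.9% and 51.9% of them. Another 869 (29.6% of the unstimulated list) turned from higher in the SMAD3 IP to higher in the mock IP. That share lies between the 14.9% of all distal probes and the 43.6% of measured ones called lower after TGFb1. The opposite way turned 600 (24.5% of the stimulated list), where 14.2% of all distal probes and 40.6% of measured ones were lower in unstimulated cells. The lists of probes higher in the mock IP shared 4621, 44.6% and 42.5% of them. These shares lie above the 14.9% and 14.2% of all distal probes and near the 43.6% and 40.6% among measured ones. The conditions have separate mock IPs and no array in common. Across the 72852 distal probes the log2 ratios of replicates correlated at 0.87 in unstimulated and 0.90 in stimulated cells, and at 0.14 to 0.16 between conditions. For the SMAD3 signal alone the correlations were 0.92 and 0.94 within and 0.66 to 0.70 between conditions, and for the mock signal 0.93 and 0.97 within and 0.58 to 0.63 between. These correlations run across probes of one array set, which share base composition and labelling, and carry no p-value.

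**Figure D2:**
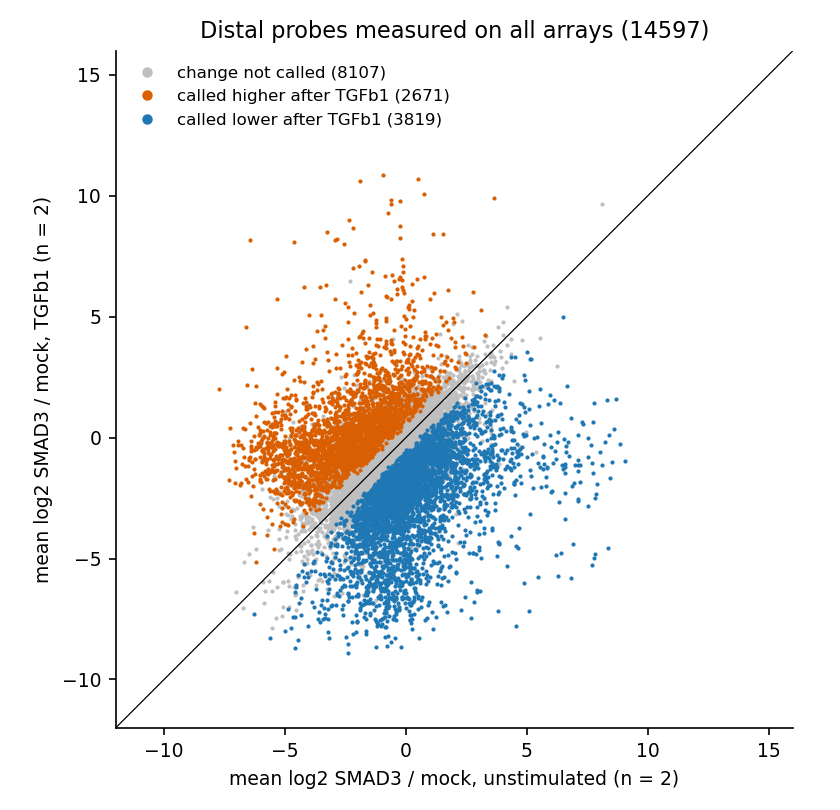
Mean log2 ratio of SMAD3 to mock in unstimulated (x axis) and TGFb1-stimulated cells (y axis) for the 14597 distal probes measured on all arrays; each point is a probe, the line marks equality and colours mark the 2671 called higher and 3819 called lower after TGFb1. Few points lie far out along the diagonal at the upper right, and most probes with a high ratio in one condition sit near or below 0 in the other.

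Between the conditions 5954 distal probes (8.17%) were called higher after TGFb1, against 10.5% of all probes, and 6765 (9.29%) lower, against 12.4%. Of the measured distal probes 2671 rose (18.3%) and 3819 fell (26.2%), close to the 19% and 25.5% over all measured probes. Among spots bright enough to be read, a called change was thus about as frequent in the distal window as over the array. Rises were 46.8% of the calls, and 49.4%, 50.6% and 50.3% under the loess, uncentred and measured-probe scalings, but 32.1% after normexp correction, which left 802 rises and 1697 falls.

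The 5 largest rises among measured probes were at DPEP1, a membrane dipeptidase, TTLL11, a tubulin polyglutamylase, VIM, the mesenchymal intermediate filament vimentin, FOXC1 as above, and SEPT4 (now SEPTIN4), a septin. The DPEP1 probe (chromosome 16, distance -3338) read -6.78 and -6.13 before and 7.93 and 8.44 after TGFb1, a change of 14.65 (SE 0.34) on the log2 ratio. In its channels the SMAD3 signal rose by 6.61 and the mock signal fell by 8.10. Both immunoprecipitates thus moved at DPEP1, in opposite directions. Another 2 DPEP1 probes, at -4564 and -4306, fell, to between -8.58 and -7.09, so the locus did not move one way. The VIM probe (chromosome 10, distance -4257) read -2.04 and -1.75 before and 9.91 and 11.32 after, a change of 12.51 (SE 0.58, limma adjusted p = 0.00347). There the SMAD3 signal rose by 10.58 (adjusted p = 0.0098) and the mock change of -1.82 did not pass (adjusted p = 0.368). The next VIM probes inward, at -4017 and -3863, read 11.39 and 11.42 and then 9.13 and 8.62 after TGFb1, the first of them not above background in both channels. At TTLL11 (chromosome 9) 6 of 7 distal probes rose, and the named one at -4606 went from -5.49 and -3.74 to 8.43 and 7.76. Its SMAD3 channel change of 7.09 did not pass on its own (limma adjusted p = 0.118), and its mock change of -5.51 did (adjusted p = 0.0247). The SEPT4 probe (chromosome 17, distance -3224) changed by 11.80 (SE 0.35). Its SMAD3 signal changed by 8.21 (limma adjusted p = 0.00531) and its mock signal by -3.66 (adjusted p = 0.00249). With normexp correction the DPEP1 and SEPT4 rises no longer passed (adjusted p = 0.0797 and 0.0734), and the other 3 did, at changes of 7.79 to 8.38. The VIM and FOXC1 calls were also lost when either unstimulated replicate was left out (adjusted p from 0.0505 to 0.0524).

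**Figure D3:**
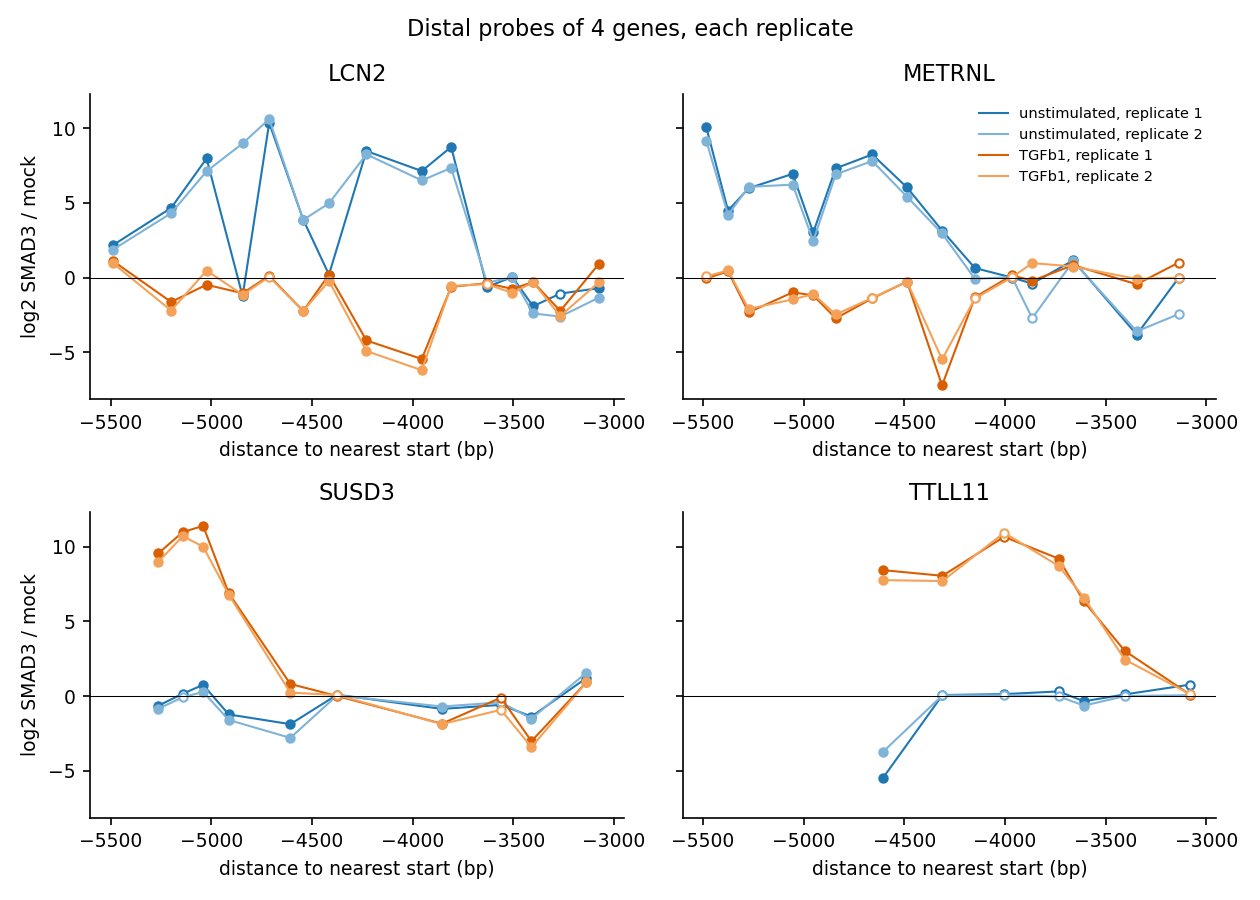
Log2 ratio of SMAD3 to mock (y axis) by distance to the nearest start (x axis) for the distal probes of LCN2, METRNL, SUSD3 and TTLL11, one line per replicate; filled points were above background in both channels in both replicates of their condition, open points were not. The unstimulated lines stand high at LCN2 and METRNL and the stimulated lines at SUSD3 and TTLL11.

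The 5 largest falls were at LRRC52, an auxiliary potassium channel subunit, LCN2 again (a second probe, at -4229), WDR5, a shared subunit of histone methyltransferase complexes, DUSP2, a MAP kinase phosphatase, and MAX, the dimer partner of MYC. The LRRC52 probe (chromosome 1, distance -3128) read 8.38 and 7.04 before and -5.08 and -5.42 after TGFb1, a change of -12.97 (SE 0.55). The LCN2 probe read 8.47 and 8.25 before and -4.21 and -4.92 after, a change of -12.93 (SE 0.31). Its SMAD3 signal changed by -6.33 (limma adjusted p = 0.017) and its mock signal by 6.71 (adjusted p = 0.00289). The MAX probe (chromosome 14, distance -4097) read 4.70 and 4.38 before and -8.98 and -6.62 after. The probes at WDR5 (chromosome 9, distance -3091) and DUSP2 (chromosome 2, distance -3161) changed by -12.77 and -12.62. At WDR5 the SMAD3 signal changed by -8.95 (limma adjusted p = 0.0041) and the mock signal by 3.93 (adjusted p = 0.0391). At DUSP2 these changes were -9.54 (adjusted p = 0.00453) and 3.19 (adjusted p = 0.0106). At MAX most of the change was in the mock channel, which rose by 7.79 (limma adjusted p = 0.000201) while the SMAD3 change of -4.48 did not pass (adjusted p = 0.107). At LRRC52 it was the reverse, with a SMAD3 change of -10.27 (adjusted p = 0.00172) and a mock change of 2.80 (adjusted p = 0.0744). With normexp correction the LCN2 and MAX falls did not pass (adjusted p = 0.0667 and 0.119), and the MAX call was lost without either unstimulated replicate (adjusted p of 0.0809 and 0.08).

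More distal probes were called changed in the mock IP than in the SMAD3 IP. With each channel fitted alone, 1793 distal probes rose and 2743 fell in the SMAD3 IP (2.46% and 3.77%, against 2.7% and 4.33% of all probes), and 4353 rose and 4853 fell in the mock IP (5.98% and 6.66%, against 6.83% and 7.67%). Among the 2671 measured probes with a higher ratio after TGFb1, the mock change was the larger of the 2 in 62.9%, the median SMAD3 change was 0.46 and the median mock change -1.67. Among the 3819 with a lower ratio, the mock change was the larger in 55.6%, with medians of -0.87 for SMAD3 and 1.26 for mock. The SMAD3 channel change was itself called in the same direction for 433 of the rises and 709 of the falls. The mock change was called in the opposite direction for 1245 and 1313, and both were called for 50 and 58. The channel values are given with the named rises and falls for that reason. Counts by channel among called ratios were not made over all measured probes, so they are no result particular to the distal window. After normexp correction the SMAD3 channel alone gave 133 rises and 0 falls by limma, with 490 falls at an unadjusted p under 0.05.

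**Figure D4:**
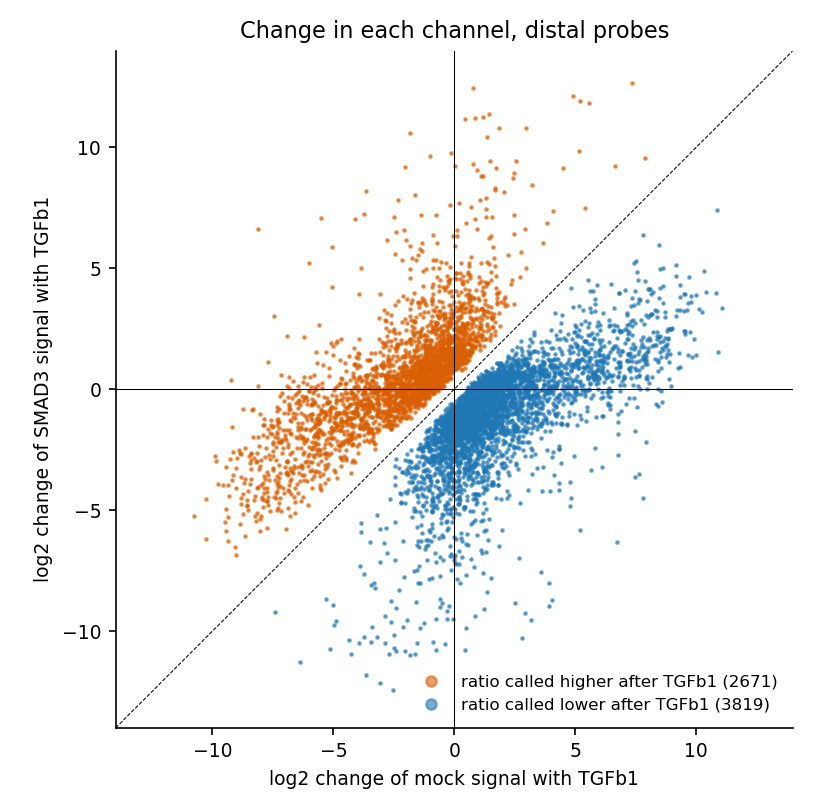
Change with TGFb1 of the log2 mock signal (x axis) and the log2 SMAD3 signal (y axis) for the 2671 measured distal probes whose ratio was called higher and the 3819 called lower; each point is a probe and the dashed line marks equal change in both channels. Rises spread along both the upper arm, where the SMAD3 signal increased, and the lower left, where the mock signal decreased more than the SMAD3 signal.

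Signals at adjacent distal probes went together over short distances. Neighbours up to 150 bp apart correlated at 0.44 in both conditions and at 0.46 for the change (23642 pairs). The correlation was 0.28 to 0.30 at 250 to 350 bp (5398 pairs), 0.09 to 0.11 at 500 to 1000 bp (5716 pairs) and 0.02 to 0.05 at 1000 to 3000 bp (1819 pairs). Such pairs share arrays and local base composition. Of the enriched probes that had a neighbour within 250 bp, 25.7% in unstimulated and 21.8% in stimulated cells had an enriched neighbour, where 5.96% and 5.06% of all distal probes did. Most enriched probes stood alone all the same: 2292 single probes, 213 pairs and 63 runs of 3 or more in unstimulated cells, and 1988, 149 and 45 in stimulated cells. The longest stimulated run, of 10 probes, was at GRM8, a metabotropic glutamate receptor gene. The longest runs of falls, also of 10, were at METRNL and at TP73, the gene of the p53-related factor p73, and the longest run of rises, of 9, was at ZBED4. These 3 last genes were singled out after their values were seen.

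Averaging the distal probes of a gene gave 8668 distal units of at least 3 probes. In unstimulated cells 400 units (4.61%) were higher in the SMAD3 IP, against 12.5% of all units of every position, and 3027 (34.9%) lower, against 34.3%. After TGFb1 these were 313 (3.61%, against 10.8%) and 3245 (37.4%, against 37.2%). Of the unit calls 11.7% in unstimulated and 8.8% in stimulated cells were higher, and 30.3% and 29.9% with loess, 31.3% and 17.9% with normexp, 69.3% and 77.2% uncentred, and 55.3% and 68.5% centred on probes above background. With TGFb1 1248 units rose (14.4%, against 16.3%) and 1512 fell (17.4%, against 20.5%), so that 45.2% of the changes were rises, 56.2% uncentred and 24% with normexp.

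The highest unstimulated units were LYPD1, a GPI-anchored Ly6 family protein, RASL10A, a RAS-like GTPase, SLC1A7, a glutamate transporter, TRIM25, and COPG (now COPG1), a coatomer subunit. RASL10A (chromosome 22, 5 probes, 5 measured before and 3 after TGFb1) read 6.89 and 6.80 before and -2.05 and -1.91 after, the largest unit fall at -8.82 (SE 0.12, limma adjusted p = 0.000345). LYPD1 read 8.33 and 8.14 before TGFb1, but none of its 4 probes was above background in both channels in either condition, so its ratio rests on floor values. SLC1A7 read 5.89 and 5.86 with 4 of 7 probes measured, and COPG 5.32 and 5.23 with 2 of 4 measured. In stimulated cells RGS10, a regulator of G protein signalling, read 6.76 and 7.81, with 1 of its 5 probes measured before and 2 after TGFb1. TTLL11 read 6.54 and 6.32, with 2 of 7 measured before and 5 after. HOXD11, a homeobox gene, followed at 5.55 and 5.47, with 3 of 5 measured before and 1 after. WNK1, a kinase of ion transport, read 6.32 and 7.04, with 1 of its 3 probes measured after TGFb1 and none before.

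The largest unit rises repeated RGS10 (7.43), TTLL11 (7.05), HOXD11 (6.70) and WNK1 (6.68). F7, the gene of coagulation factor VII, rose from -6.21 and -6.26 to -0.19 and 0.12, with 1 of its 3 probes measured in each condition. Besides RASL10A and LYPD1, the falls were at RUSC2, IBSP, which encodes bone sialoprotein, and E2F2, a cell cycle transcription factor. RUSC2 changed by -7.38, with none of its 3 probes measured before TGFb1 and 3 after. IBSP changed by -7.15, with none of 3 measured before and 1 after, and E2F2 by -6.31, with 1 of 4 measured before and 3 after. The values near 0 of these 3 units before TGFb1, and the size of every change in which few probes were measured, rest on floor values. All of these changes passed limma, with adjusted p from 0.000345 to 0.000736. With normexp correction TTLL11, HOXD11, RASL10A, RUSC2, IBSP and E2F2 still passed for the change, while RGS10, WNK1, F7 and LYPD1 did not (adjusted p from 0.184 to 0.414).

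The distal ratio of a gene followed the ratio nearer its start weakly or not at all. Across genes with units in both places, the log2 ratio of distal units correlated with that of the unit between 2000 and 3000 bp at 0.19 in unstimulated and 0.20 in stimulated cells (4943 genes), with proximal units at 0.06 and 0.11 (7707 genes) and with core units at 0.03 and 0.06 (5779 genes). For the change the values were 0.15, 0.02 and 0.01. Of 263 genes with an enriched distal unit and a core unit in unstimulated cells, 88 (33.5%) also had an enriched core unit, where 30.9% of all 5779 did, and the 88 were 4.94% of the enriched core units. LCN2, VIM and RASL10A were singled out for their large distal values, so a core unit that moved less is no result. At LCN2 the distal unit went from 3.20 and 3.81 to -1.13 and -1.38, while its core unit read -0.32 and 0.00 before and 0.12 and 0.18 after TGFb1. At VIM the distal unit rose and the core unit fell, from 0.41 and 0.23 to -1.31 and -1.72 (change -1.83, limma adjusted p = 0.00301). At RASL10A the core unit (-1.87, adjusted p = 0.00846) and the unit between 2000 and 3000 bp (-3.65, adjusted p = 0.000571) fell as the distal unit did.

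Of the genes of the TGFb pathway and of lung epithelium, 6 lists were followed, and 30 of their 70 distal units (42.9%) had a called change, against 31.8% of all distal units. Of the 70, 15 rose (21.4%, against 14.4%) and 15 fell (21.4%, against 17.4%). The lists were chosen with results of these data known, and no test compared them with other units. The TGFb ligands and their latency proteins had 11 distal units, with 1 rise (9.09%) and 2 falls (18.2%) and a median change of -0.22, against a median of -0.02 over all units. LTBP2, a latent TGFb binding protein, went from -2.45 and -2.35 to -0.90 and -0.77 (change 1.56, SE 0.12). LRRC32, which holds latent TGFb at the cell surface, changed by -0.62 and THBS1, the latent TGFb activator thrombospondin 1, by -0.56. Of the 7 THBS1 probes 1 was measured before TGFb1 and none after. TGFB2, BMP4, BMP6 and INHBA, the ligand genes with the most probes among those with no call, changed by 0.18, 0.01, -0.47 and 0.02. Among 7 receptor units 1 rose (14.3%) and 2 fell (28.6%), with a median change of 0.03. ENG, the coreceptor endoglin, rose by 0.74 (SE 0.20), from -0.72 and -1.22 to -0.23 and -0.23. ACVR1B and BMPR1A, type I receptors of activin and BMP, fell by 1.21 (SE 0.18) and by 0.59 (SE 0.13). Of the 14 BMPR1A probes 1 was measured before TGFb1 and 2 after. TGFBR2, the type II receptor of TGFb itself, read -0.49 and -0.53 before and -0.12 and -0.25 after, with none of its 10 probes measured.

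The SMADs and their regulators had 13 units, with 2 rises (15.4%) and 4 falls (30.8%) and a median change of -0.28. SMAD6, an inhibitory SMAD, went from -0.74 and -0.47 to -1.78 and -1.76 (change -1.17, SE 0.14, limma adjusted p = 0.00491). SMAD5, a BMP SMAD, fell from 0.06 and 0.05 to -0.71 and -0.80, with none of its 9 probes measured before and 1 after. SMAD9, another BMP SMAD, rose from -0.22 and -0.24 to 1.47 and 0.59, the one unit of the list above the mock IP after TGFb1, with 2 of 9 probes measured before and 1 after. The corepressors SKI and TGIF2 fell by 0.69 and by 1.00, with 2 of 4 TGIF2 probes measured before and 1 after. TMEPAI (now PMEPA1), a feedback inhibitor that TGFb induces, rose from -1.94 and -1.61 to -0.86 and -0.73 and stayed on the mock side of 0. SMAD7, the other inhibitory SMAD, read -0.03 and 0.00 before and -0.36 and -0.74 after (adjusted p = 0.0681). SMAD2, SMAD3, SKIL, NEDD4L, SMURF1 and TGIF1 had no called change.

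Of 21 units of SMAD3 target genes, 6 rose (28.6%) and 3 fell (14.3%), with a median change of 0.21. VIM went from -0.73 and 0.31 to 4.45 and 4.42 (change 4.64, SE 0.36, limma adjusted p = 0.00163), with 2 of 7 probes measured before and 3 after TGFb1. ITGB6, an integrin subunit that activates latent TGFb, went from -0.95 and -0.65 to 0.91 and 0.90, with 5 of 10 probes measured in each condition. ZEB1, a repressor of epithelial genes, went from 0.01 and -0.26 to 1.11 and 1.03, with none of its 11 probes measured before and 2 after, so its values before TGFb1 rest on floor values. These 3 units were called higher than the mock IP after stimulation. COL1A1, a fibrillar collagen gene, went from -2.48 and -2.04 to -0.21 and 0.13, and ID3, a helix-loop-helix inhibitor, from -2.82 and -2.51 to -0.62 and -0.67. Of the 8 ID3 probes only 2 were measured in each condition. CDKN1A, the cell cycle inhibitor p21, rose by 0.98 (SE 0.18) with 0 and 1 of 6 probes measured. SNAI1, another repressor of epithelial genes, fell from 0.39 and 0.22 to -2.99 and -1.99 (change -2.79, SE 0.35). TIMP1, a metalloproteinase inhibitor, fell by 0.93 (SE 0.17) and CTGF (now CCN2), a matricellular growth factor, by 0.56 (SE 0.13). Of the 12 CTGF probes 3 were measured in each condition. Of the rest, COL3A1, ZEB2, CDH1 and SNAI2, with the most probes, changed by -0.07, -0.49, 0.44 and 0.25.

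The AP-1 list, with JUNB shared with the targets, had 8 units with 1 rise (12.5%) and 2 falls (25%) and a median change of -0.12. FOSB, an AP-1 subunit, fell from 0.58 and 0.70 to -1.05 and -1.03 (change -1.68, SE 0.11, limma adjusted p = 0.00121). JUND fell by 0.57 (SE 0.11), MAFF rose by 0.70 (SE 0.16), and ATF3, FOS, FOSL2 and JUN changed by 0.17, 0.01, -0.26 and -0.26 with no call. Of 11 units of lung epithelial genes 4 rose (36.4%) and 2 fell (18.2%), with a median change of 0.45. CEBPD, a C/EBP transcription factor, fell from 0.44 and -0.42 to -3.48 and -3.77 (change -3.63, SE 0.32), with 2 of 7 probes measured before and 4 after. GATA6, a factor of lung endoderm, rose from -1.23 and -1.20 to -0.35 and -0.25, with 10 and 9 of 14 probes measured. SFTPB, the surfactant protein B gene, rose by 1.12 (SE 0.18), from -1.49 and -1.83 to -0.40 and -0.67. KRT18, an epithelial keratin, rose by 0.77 (SE 0.16), from -1.55 and -1.70 to -1.01 and -0.71. Both stayed on the mock side of 0. The forkhead genes FOXA1 and FOXA2 moved little, from 0.29 and 0.24 to -0.17 and -0.15 and from -0.26 and -0.42 to 0.11 and 0.11, with limma adjusted p of 0.0424 and 0.0461. The FOXA1 call was lost with loess (adjusted p = 0.105) and in each of the 4 fits that left out 1 replicate (adjusted p from 0.116 to 0.147), and the FOXA2 call, with 2 of 14 probes measured, in each of those 4 fits (adjusted p from 0.0862 to 0.167). SCGB1A1, KRT8, CEBPB and KRT19 changed by 0.31, -0.27, 0.50 and 0.50 with no call. Of the 30 changes 5 passed with normexp correction (VIM, CEBPD, ITGB6, ZEB1 and TIMP1), 26 with loess and 24 with the uncentred ratios, and 12 passed in every fit that left out 1 replicate. The 6 lost with the uncentred ratios were LRRC32, THBS1, BMPR1A, CTGF, FOXA1 and JUND (limma adjusted p from 0.0565 to 0.169).

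**Figure D5:**
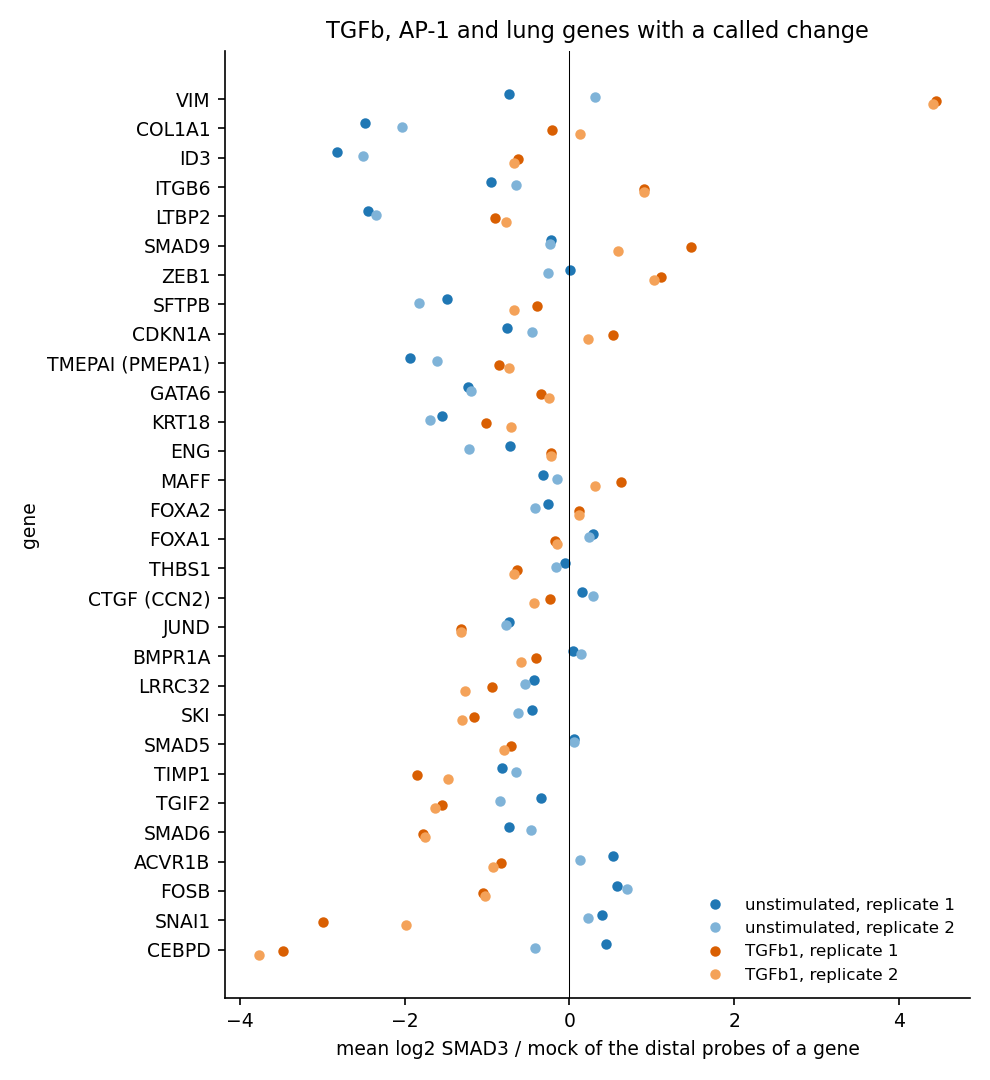
Mean log2 ratio of SMAD3 to mock over the distal probes of a gene (x axis) in each replicate, for the 30 listed TGFb, AP-1 and lung genes (y axis, array symbol with the current one in brackets) whose change was called, ordered by the change. VIM stands apart at the top with stimulated values of 4.45 and 4.42, and CEBPD and SNAI1 lie lowest after TGFb1.

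Upstream of miRNAs 127 distal units were tested, and 104 were matched to a RefSeq miRNA by name. In unstimulated cells 8 (6.3%) were higher and 45 (35.4%) lower in the SMAD3 IP, against 4.61% and 34.9% of all distal units. In stimulated cells 8 (6.3%) were higher and 48 (37.8%) lower, against 3.61% and 37.4%. With TGFb1 14 rose (11%) and 20 fell (15.7%), against 14.4% and 17.4%. These shares are near those of all distal units, so the counts are no result about miRNAs. The distal unit of mir-185 (chromosome 22, 11 probes, 10 measured before and 5 after) read 4.03 and 3.70 in unstimulated and -0.73 and -0.77 in stimulated cells, a change of -4.61 (SE 0.16, limma adjusted p = 0.000426). The unit of mir-138-2 (chromosome 16, 10 probes) went the opposite way, from -0.64 and -0.57 to 2.00 and 1.97 (change 2.59, SE 0.11), and was above the mock IP after TGFb1 alone. The unit of mir-138-1 (chromosome 3, 11 probes) had no called change (-0.10, limma adjusted p = 0.74). That of mir-193b (chromosome 16) rose from -0.99 and -1.21 to 0.43 and 0.38. The units of mir-589 (chromosome 7) and mir-296 (chromosome 20) were on the mock side in both conditions and fell further, with changes of -2.66 (SE 0.14) and -1.42 (SE 0.11). With normexp correction the mir-589 change passed (-2.21, adjusted p = 0.00638), and those of mir-185 (-3.07, adjusted p = 0.0536), mir-138-2, mir-193b and mir-296 did not (adjusted p of 0.13, 0.621 and 0.378). The unit of mir-200b (chromosome 1), of the miR-200 family that restrains epithelial to mesenchymal transition, had 16 of 17 probes measured before and 17 after and read -0.15 and -0.44, then -0.18 and -0.35, a change of 0.03 (SE 0.16, adjusted p = 0.915).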

How the data were processed

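Scanner files from 8 two-colour arrays were used. The deposited intensity values were made by the authors with Agilent Feature Extraction 9.5.1.1, per the file headers with spatial detrending, background subtraction and a linear dye factor, and floor values for dim spots. The deposited series table held log2 ratios equal to those of the processed intensities within 3.13e-06. The study's methods name the UCSC hg17 assembly for its genomic analyses, but the scanner files name no build for the probe positions, so chromosomes and annotated distances are reported without coordinates. Control spots, 1404 probes with an outlier flag on any array (229 distal) and 19 probes with no annotated start were left out, leaving 472988. The log2 ratio of red (SMAD3 IP) to green (mock IP) was centred on each array's median, and the slides of a replicate were joined. The means of each condition and their difference were tested with limma 3.58.1 in R 4.3.3 (lmFit, eBayes), without blocks or covariates. Benjamini-Hochberg adjustment ran over all probes, at adjusted p under 0.05. The p-values rest on the spread between the 2 replicates of a condition, pooled over both conditions and moderated across probes. Gene units averaged at least 3 probes of one gene and position class. Position classes were compared per replicate with exact tests in Python 3.11.15. With 2 replicates a condition the number of arrays limits the precision.

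On simulated data, with 94598 of 472988 probes changed by a log2 value of 2 between conditions, 86.9% were recovered and 4.73% of calls were false. With 200 changed, 0% were recovered at a log2 value of 4 and 69% at 8. All arrays were read on 1 scanner and each was its own slide, so no batch term was possible. The distal probes, gene lists and comparisons were chosen with earlier results of these data known. The named probes were the 5 with the highest mean ratio in each condition and the 5 largest rises and falls among called probes above background in both channels on the arrays concerned, at most 1 a gene. The named units were the 5 highest called in each condition and the 5 largest rises and falls, and from the lists the called members and up to 4 others with the most probes. One unit that the rule names is not reported here. Other exceptions are marked. Of 10694 gene names 10630 were matched to a current RefSeq symbol. Alternatives were the background correction (normexp, offset 50), loess, uncentred ratios, filters on dim spots, a replicate block, separate slides, variance models, thresholds, single replicates left out, a limit of 4000 bp, RefSeq starts only, centring on bright probes and 1 probe length, the last 3 added after the data were seen.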

Additional observations from a re-analysis of the deposited data

How the results depend on the processing

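Background correction, the choice of zero and the small number of replicates moved the counts most, and the cause was not tested. In order of unstimulated, stimulated and change, higher before lower, distal probes called numbered 2938 and 10351, 2450 and 10868, and 5954 and 6765, and distal units 400 and 3027, 313 and 3245, and 1248 and 1512. Normexp gave 166 and 449, 805 and 2493, and 802 and 1697 probes, and 57 and 125, 199 and 910, and 176 and 556 units. In single channels normexp with limma gave 133 rises and 0 falls in the SMAD3 IP (1678 and 490 at an unadjusted p under 0.05) and 828 and 0 in the mock IP (2990 and 560). Loess gave 4028 and 7146 probes in stimulated cells, 866 and 1988 units in unstimulated and 823 and 1934 in stimulated cells. Uncentred ratios gave 24411 and 35614 higher probes and 3334 and 1480, then 4672 and 1379 units. Centring on measured probes gave 15266 and 21703 higher probes and 2157 and 1744, then 3602 and 1653 units. Quantile normalization gave 3102 rises in the SMAD3 channel. At adjusted p under 0.01 the probes were 1641 and 6125, 1347 and 6484, and 2969 and 3340, and the units 205 and 1891, 172 and 2156, and 642 and 819. With an absolute log2 value of at least 1 the units were 128 and 1144, 102 and 1312, and 670 and 848. Probes beyond 4000 bp gave 1679 and 5869, 1456 and 6208, and 3409 and 3876, and 2154 lower units in stimulated cells. Requiring signal in 1 channel on every array left 254 and 1881, 146 and 2157, and 586 and 965 units, and in both channels 201 and 1206, 134 and 1388, and 398 and 711 units and 3324 probe rises.

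Leaving out 1 replicate gave 1423 to 2508 higher and 5246 to 8770 lower probes in unstimulated cells, 1593 to 1723 and 7298 to 8271 in stimulated cells, and 3106 to 3819 rises and 2500 to 5091 falls. Units ran from 200 to 345 and 1635 to 2665, from 167 to 262 and 1917 to 2980, and from 697 to 885 and 901 to 1030. The lone replicate was assumed to vary like the other condition. The lowest counts of falls, 2715 and 2500, came without unstimulated replicate 1 and 2.

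The distal median ratio minus that of core, proximal and all other probes was -0.014, 0.006 and 0.006. It was -0.038, -0.004 and -0.006 with normexp, -0.085, -0.004 and -0.008 with loess, -0.043, 0.004 and 0.002 uncentred, -0.803, -0.210 and -0.310 with signal in 1 channel, -0.888, -0.261 and -0.388 with signal in both, -0.322, -0.010 and -0.043 for means, and -0.929, -0.307 and -0.444 for probes of 44 to 45 bases. Without 1 replicate it ran from -0.016 to -0.01, from 0.005 to 0.006 and stayed at 0.006. Its difference between conditions, 0.006 for core, turned to -0.011 with normexp, -0.004 with loess, -0.072 and -0.116 with signal in 1 or both channels, -0.120 at 44 to 45 bases and -0.002 without unstimulated replicate 1 (range -0.002 to 0.015). Against proximal probes, from -0.001, it turned to 0.010 for means and 0.001 without unstimulated replicate 1 (range -0.002 to 0.001). Against all other probes, from 0.002, it turned to -0.002 with normexp, -0.002 with loess, -0.038 and -0.075 with signal in 1 or both channels and -0.076 at 44 to 45 bases (range without 1 replicate 0.001 to 0.002).

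Replicate numbers were shared between conditions but their deviations correlated at 0.02 over distal probes, so no common shift of same-numbered replicates was seen. This value cannot tell whether such replicates were handled together, and the main fit did not pair them. With the replicate block 2536 and 9751, 2144 and 10107, and 4939 and 5645 probes and 387 and 3060, 299 and 3225, and 1235 and 1494 units were called. RefSeq starts alone, units of at least 5 probes, separate slides and the trended variance kept each count within 1.5 times. Of the named probes and units chosen by rank, 19 calls were lost with normexp and some without an unstimulated replicate, and none changed sign. Of the 30 called list units only 5 kept their call with normexp. There the changes of FOXA1, LRRC32 and SKI turned from negative to 0.21, 0.04 and 0.07. Strata of GC content were not run, since the files used hold no probe letters. Dim spots also limit the distal window: 20% of its probes were measured on all arrays. Centring on bright probes, RefSeq starts and the single probe length were chosen after seeing the data.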
